A study of Mus musculus with 6 samples.

Results

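Interferon-stimulated genes, the genes that cells switch on when interferon binds its receptors, were read in bulk liver RNA of 6 male mice. The 35 members were taken from a fixed list of symbols and are 35 of the 35082 genes to which the deposited transcripts could be assigned. They were divided into 25 genes induced mainly by type I interferon and 10 induced strongly by interferon-gamma, a division made from general knowledge that is not sharp, since many members answer to both. Every mouse carried homozygous floxed G3bp1 alleles and was fed a high-fat diet for 20 weeks from 8 weeks of age. The control animals (genotype G3BP1f/f, called C1, C2 and C3 by replicate number) are labelled without Cre, and their sample titles call them wild-type. Each library is from a separate mouse, per the design. The knockout-labelled animals (genotype Alb-cre; G3BP1f/f, called K1, K2 and K3) also carried a Cre transgene driven by the promoter of albumin, a protein made mainly by hepatocytes, so other liver cells are largely not targeted. No library of Cre animals without floxed alleles, and none of animals on another diet, was analysed here. G3BP1 is a protein that nucleates stress granules and also takes part in innate sensing of nucleic acids, so the comparison asks how this class of antiviral genes stood in livers labelled as lacking it in hepatocytes.

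Type I interferons signal through the receptor IFNAR, the kinases JAK1 and TYK2 and a complex that contains STAT2 and IRF9 and binds the interferon-stimulated response element (ISRE). Interferon-gamma signals through IFNGR, JAK1 and JAK2, and its target genes often carry the gamma-activated site (GAS). In liver, hepatocytes, Kupffer cells and endothelial cells all respond to interferon, while T cells and NK cells are the main source of interferon-gamma.

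The promoters of the members were searched for the letters of both elements. RefSeq start sites on GRCm38.p6 were matched for 27 of the 35 members, and the 250 bases before each start site were searched for an ISRE written as GAAA, any 2 bases and GAAA, on either strand, and for a GAS written as TTCNNNGAA, which reads the same on both strands. The ISRE letters were present for 15 of the 27 members (55.6%) and for 3.46% of all 27025 genes with such a window. The GAS letters were present for 6 members (22.2%) and for 8.13% of all genes. By class, 9 of 18 type I induced and 6 of 9 interferon-gamma induced members held the ISRE letters, and 3 of 18 and 3 of 9 held the GAS letters. A match describes the letters and shows no binding. No entry was held for Ifi27, Iigp1, Mx1, Mx2, Oas2, Parp14, Usp18 and Zbp1. The 6 windows below, chosen to show each arrangement in genes whose values follow, are given 5′ to 3′ on the gene's strand with every match in capitals. They lie at chr4:156200819-156201068 (minus strand, Isg15), chr12:26456453-26456702 (minus, Rsad2), chr5:92348890-92349139 (minus, Cxcl10), chr11:58199306-58199555 (plus, Igtp), chr3:142530086-142530335 (plus, Gbp7) and chr11:53769764-53770013 (plus, Irf1).
Isg15: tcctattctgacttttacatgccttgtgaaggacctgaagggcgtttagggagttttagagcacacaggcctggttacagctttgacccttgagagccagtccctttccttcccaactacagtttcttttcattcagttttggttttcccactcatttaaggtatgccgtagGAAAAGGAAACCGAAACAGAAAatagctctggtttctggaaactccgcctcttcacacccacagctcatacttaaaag
Rsad2: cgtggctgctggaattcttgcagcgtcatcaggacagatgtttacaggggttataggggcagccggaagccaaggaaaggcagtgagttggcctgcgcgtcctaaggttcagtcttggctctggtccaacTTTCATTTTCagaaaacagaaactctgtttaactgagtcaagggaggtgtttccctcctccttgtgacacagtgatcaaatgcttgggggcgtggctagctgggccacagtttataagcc
Cxcl10: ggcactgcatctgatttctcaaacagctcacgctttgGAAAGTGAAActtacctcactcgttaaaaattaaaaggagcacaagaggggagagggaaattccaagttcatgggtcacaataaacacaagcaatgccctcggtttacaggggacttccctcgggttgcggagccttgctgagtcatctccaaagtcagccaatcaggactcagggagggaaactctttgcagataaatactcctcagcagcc
Igtp: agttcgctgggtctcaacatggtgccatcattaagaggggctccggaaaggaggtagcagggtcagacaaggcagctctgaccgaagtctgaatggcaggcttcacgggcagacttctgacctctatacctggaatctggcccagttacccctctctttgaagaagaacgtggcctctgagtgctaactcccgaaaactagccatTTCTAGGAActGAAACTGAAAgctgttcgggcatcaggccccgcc
Gbp7: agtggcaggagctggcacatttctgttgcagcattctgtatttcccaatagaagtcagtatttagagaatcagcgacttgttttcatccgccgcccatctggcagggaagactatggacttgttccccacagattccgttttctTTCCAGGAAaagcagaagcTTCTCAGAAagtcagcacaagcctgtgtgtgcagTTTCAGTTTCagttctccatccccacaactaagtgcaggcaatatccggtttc
Irf1: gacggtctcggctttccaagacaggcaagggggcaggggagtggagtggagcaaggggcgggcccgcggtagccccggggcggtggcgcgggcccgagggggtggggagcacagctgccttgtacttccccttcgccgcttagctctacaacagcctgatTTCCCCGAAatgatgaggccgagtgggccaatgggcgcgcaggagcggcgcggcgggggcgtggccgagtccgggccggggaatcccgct
Overlapping ISRE matches run together in Isg15, a single ISRE stands in Rsad2 and Cxcl10, an ISRE and GAS letters both stand in Igtp and Gbp7, and Irf1 has GAS letters without an ISRE.

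Each library held between 20899135 and 21750007 estimated counts. Levels are given as counts per 1e6 counts (CPM) scaled with the TMM factors of edgeR, and a difference is the edgeR log2 value of the knockout-labelled minus the control libraries. The targeted gene did not set the groups apart: the mean of G3bp1 was 39.8 ± 4.69 CPM without Cre and 35.2 ± 7.70 CPM with it (SD, n = 3 each, edgeR adjusted p = 0.91), so the groups are named by their labels. The sum over the gene does not check an exon removed by Cre. K2 and K3 stood apart from the other libraries: 36.3% and 37.8% of transcripts had counts above 0 there and 30.2% to 31.2% elsewhere. Genes with transcripts of up to 800 bases, mitochondrial genes left out, took 13.2% and 12.0% of counts there and 14.9% to 21.7% elsewhere. Mitochondrial genes took 9.16% and 10.1% of counts in K2 and K3 and 7.197% to 7.62% elsewhere. The part of these properties in the members' differences was not tested. In K1 the effective length of long transcripts was exactly 250 bases below their length, and in the other libraries it was 242 to 262 bases below (medians). K1 may thus have been quantified with another setting, but the settings were not given. All 12 hepatocyte markers examined passed the filter on low counts and summed to 98190 to 131100 CPM in controls and 70380 to 117200 CPM in knockout-labelled libraries, with the lowest sum in K3.

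All 35 members passed the filter on low counts, and none passed the threshold of an adjusted p of 0.05. The edgeR test called 0 of the 35 members and 0% of the 12497 genes tested, DESeq2 called 0 members and 0.088% of all genes, and limma voom called 0 members and 0 genes. The members' edgeR adjusted p ran from 0.84 to 1.00. By sign alone, 29 of 35 members (82.9%) had a log2 difference above 0, as had 51.6% of all genes, and the median difference was 0.46 for members and 0.01 for all genes. A difference above 0.5 was seen for 15 members, 10 of them type I induced, and for 10.1% of all genes. An unadjusted edgeR p under 0.05 was reached by 4 members on the higher side (11.4%), Irf9, Stat2, Cmpk2 and Dtx3l, beside 2.65% of all genes, and by 0 members on the lower side, beside 1.9% of all genes. The groups were free of overlap for 2 members on the higher side, Cmpk2 and Dtx3l (5.71%, beside 4.79% of all genes), and for 1 on the lower side, Ifi27 (2.86%, beside 4.55%). The shares free of overlap are near those of all genes.

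The spread lay between animals within each group. K3 was the highest of the 6 libraries for 27 members (77.1%, beside 18.9% of all genes) and K2 the lowest for 17 (48.6%, beside 13.5%). Within the knockout-labelled group K3 was the highest for 29 members (beside 32.2% of all genes) and K2 the lowest for 28 (beside 26.2%). Within the controls C3 was the highest for 22 members (62.9%, beside 29.2% of all genes). K3 exceeded every control for 27 members (77.1%, beside 28.6% of all genes). K1 did so for 9 (25.7%, beside 18.5%) and K2 for 6 (17.1%, beside 26.5%), and K2 lay under every control for 17 (48.6%, beside 26.1%). The median ratio of the highest to the lowest library was 3.13 for members and 1.92 for all genes. Taken per library, the members' median deviation from their mean over the 6 libraries, in log2 CPM, was -0.36, -0.35 and 0.31 in C1 to C3 and 0.19, -0.62 and 0.85 in K1 to K3. The knockout-labelled group thus held both the highest and the lowest library for these genes.

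**Figure D1:**
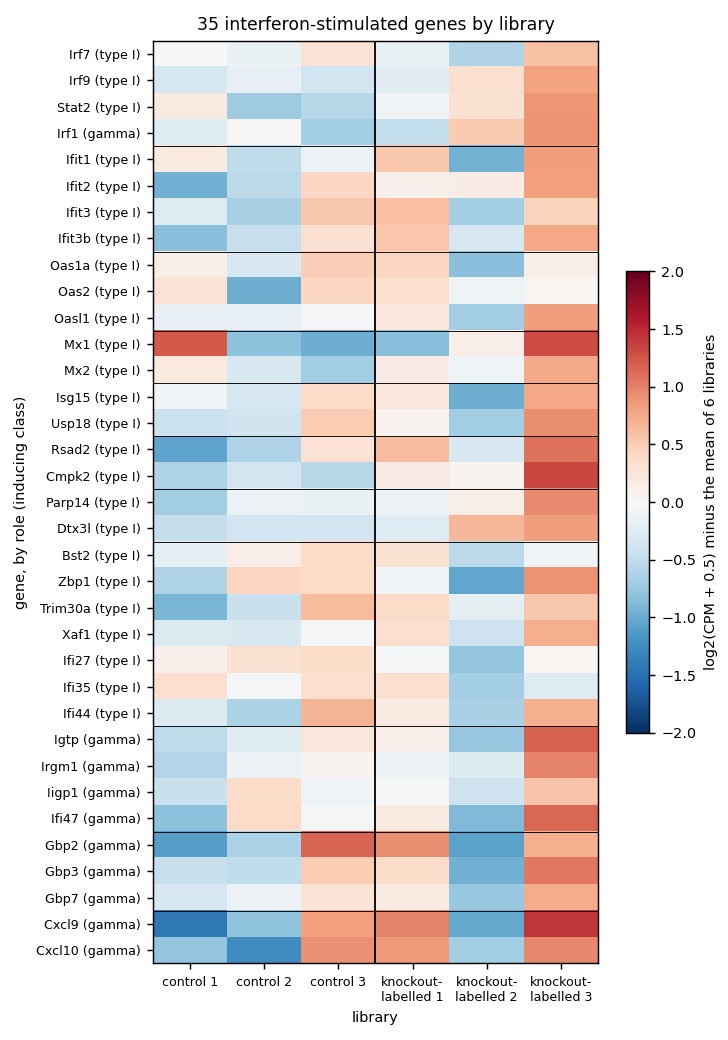
Level of each member (rows, by role) in each library (columns), as log2(CPM + 0.5) minus its mean over the 6 libraries. K3 is the highest library for 27 members and K2 the lowest for 17, and C3 is the reddest control for 22 of 35 members.

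Among the transcription factors, Irf9, Stat2 and Irf1 were above every control in K2 and K3, and Irf7 was so in K3 alone. Irf9, the DNA-binding subunit of the complex that reads the ISRE, measured 17.6, 20.2 and 17.2 CPM in C1 to C3 and 19.2, 28.4 and 39.7 CPM in K1 to K3. K2 and K3 exceeded every control and K1 lay within the range of the controls (log2 difference 0.67, standard error 0.27, edgeR adjusted p = 0.84). Stat2, its partner, measured 30.7, 16.3 and 18.1 CPM in C1 to C3 and 25.6, 33.6 and 50.2 CPM in K1 to K3. C1 exceeded K1, and K2 and K3 exceeded all controls (log2 difference 0.75, standard error 0.33, edgeR adjusted p = 0.84). Irf1, an interferon-gamma induced factor whose window above holds GAS letters, measured 12.4, 15.1 and 9.15 CPM in C1 to C3 and 10.4, 21.7 and 28.3 CPM in K1 to K3. Again K2 and K3 lay above the controls and K1 within them (log2 difference 0.72, standard error 0.36, edgeR adjusted p = 0.84). Irf7, the factor that amplifies type I interferon transcription, measured 30.8, 27.7 and 37.3 CPM in C1 to C3 and 27.5, 19.9 and 46.2 CPM in K1 to K3. Here K2 was the lowest library and K3 the highest, and the difference was -0.04 (standard error 0.31). Without K3 the differences of Irf9, Stat2 and Irf1 were 0.38, 0.45 and 0.40. Without K1 they were 0.89, 0.95 and 1.03, with edgeR adjusted p of 0.17, 0.23 and 0.17. The fit without K1 leaves K2 and K3 as the knockout-labelled group, the libraries that stood apart in the properties given above. The part of those properties in this fit was not tested. Stat2 was 1.08 without C1. The annotated span of Irf9 overlaps Rnf31 on the same strand, which measured 14.1, 6.90 and 7.003 CPM in C1 to C3 and 9.54, 9.16 and 9.68 CPM in K1 to K3.

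The IFIT genes, whose products bind foreign RNA and block its translation, varied between animals, and the ranges of the groups overlapped for each. They lie side by side on chromosome 19, from 34550694, where Ifit2 starts, to 34650009, where Ifit1 ends (plus strand, GRCm38). Ifit2 measured 1.12, 1.70 and 3.72 CPM in C1 to C3 and 2.89, 3.01 and 5.11 CPM in K1 to K3, which rests on 21 counts in C1 and 122 in K3 (log2 difference 0.75, standard error 0.47). Ifit3b measured 2.56, 3.45 and 6.24 CPM in C1 to C3 and 7.55, 3.81 and 8.84 CPM in K1 to K3 (log2 difference 0.72, standard error 0.42). Their control and knockout-labelled ranges overlapped, with C3 above K2 for both. Ifit1 ran from 11.9 to 19.5 CPM in controls and from 8.63 CPM in K2 to 30.7 CPM in K3, and Ifit3 from 13.7 to 31.9 CPM in controls and from 13.5 to 33.4 CPM in knockout-labelled libraries, with differences of 0.45 and 0.27. The coding frames of Ifit3 and Ifit3b are identical at 99.1% of 1212 aligned bases, so the division of reads between these genes is uncertain.

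The oligoadenylate synthetases, which make the messenger that activates RNase L, showed no common direction. Oasl1, a family member without that enzyme activity, measured 11.8, 11.8 and 12.9 CPM in C1 to C3 and 15.7, 8.01 and 24.1 CPM in K1 to K3 (log2 difference 0.39, standard error 0.36). K2 was the lowest and K3 the highest library. Oas1a measured 5.64, 4.05 and 7.43 CPM in C1 to C3 and 6.99, 2.66 and 5.58 CPM in K1 to K3 (log2 difference -0.17, standard error 0.39), with C3 the highest library. Its coding frame is identical to that of Oas1g at 96.7% of 1104 aligned bases, so these reads can also be divided between copies. Oas2 ran from 1.53 to 4.86 CPM in controls and from 3.27 to 4.53 CPM in knockout-labelled libraries. The directions of Oas1a and Oas2 were not stable, since Oas1a was 0.07 when scaled by library totals and Oas2 was -0.11 with an effective length offset.

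The Mx GTPases, antiviral proteins that many laboratory strains carry in inactive form, were low. Mx2, annotated as a polymorphic pseudogene, measured 5.64, 3.78 and 2.81 CPM in C1 to C3 and 5.48, 4.56 and 8.55 CPM in K1 to K3 (log2 difference 0.61, standard error 0.35). Mx1 had 34, 1 and 0 counts in C1 to C3 and 1, 13 and 46 counts in K1 to K3, and its TPM mean of 0.30 was the lowest of all members. Within each group a single library held most of the Mx1 counts, C1 and K3, so a fitted fold of this gene depends on the prior count and measures no size.

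Isg15, a ubiquitin-like protein that is conjugated to other proteins, and Usp18, the protease that removes it and also dampens IFNAR signalling, followed the same order of libraries within each group, apart from C1 and C2. Isg15 measured 7.99, 6.52 and 10.96 CPM in C1 to C3 and 9.71, 3.98 and 14.6 CPM in K1 to K3 (log2 difference 0.15, standard error 0.43, edgeR adjusted p = 0.96). Usp18 measured 7.93, 8.10 and 15.7 CPM in C1 to C3 and 11.4, 6.55 and 21.2 CPM in K1 to K3 (log2 difference 0.30, standard error 0.44). For both, K2 lay under every control and K3 above every control. Isg15 was -0.31 and Usp18 -0.24 without K3, and Isg15 was -0.0073 in limma voom, -0.0064 without C2 and 0.52 without K2.

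Cmpk2 and Rsad2 had the largest differences among the type I induced members. Rsad2 encodes viperin, which makes a chain-terminating nucleotide from CTP, and Cmpk2 a mitochondrial nucleotide kinase; the genes are neighbours on chromosome 12, with Rsad2 at 26442746 to 26456452 (minus strand) and Cmpk2 at 26469204 to 26479837 (plus strand, GRCm38). Cmpk2 measured 4.15, 4.93 and 4.29 CPM in C1 to C3 and 7.51, 6.95 and 17.4 CPM in K1 to K3. All knockout-labelled libraries exceeded all controls, and K3 alone was more than all controls together (log2 difference 1.25, standard error 0.37, edgeR adjusted p = 0.84). Without K3 the difference was 0.70. Rsad2 measured 5.38, 7.45 and 14.5 CPM in C1 to C3 and 18.3, 9.34 and 25.4 CPM in K1 to K3. C3 exceeded K2, so the groups overlapped (log2 difference 0.95, standard error 0.45, edgeR adjusted p = 0.84). The Rsad2 difference was 0.60 without K3 and 1.47 without C3.

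Parp14 and Dtx3l, a mono-ADP-ribosyltransferase and a ubiquitin ligase that works with PARP9, lie near each other on chromosome 16. Dtx3l measured 9.96, 10.7 and 10.7 CPM in C1 to C3 and 11.7, 22.7 and 25.6 CPM in K1 to K3. The controls were within 9.96 to 10.7 CPM, K1 lay just above them, and K2 and K3 lay well above (log2 difference 0.93, standard error 0.29, edgeR adjusted p = 0.84). It was 1.203 without K1 (edgeR adjusted p = 0.16) and 0.72 without K3. Without K1 the knockout-labelled group is again K2 and K3, which stood apart from the other libraries as described above. Dtx3l overlaps Parp9 on the opposite strand, and since use of strand is not stated, reads in the overlap cannot be told apart; Parp9 measured 20.3, 34.0 and 33.1 CPM in C1 to C3 and 27.5, 37.4 and 50.6 CPM in K1 to K3. Parp14 measured 9.48, 14.3 and 14.1 CPM in C1 to C3 and 14.3, 16.9 and 30.6 CPM in K1 to K3 (log2 difference 0.70, standard error 0.32), with K1 inside the control range.

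Of the other type I induced members, the most abundant lay below 0. Ifi27, a small mitochondrial protein gene, measured 76.8, 88.5 and 92.5 CPM in C1 to C3 and 70.8, 41.7 and 73.9 CPM in K1 to K3. Every knockout-labelled library lay under every control, K3 by a margin of 73.9 against 76.8 CPM (log2 difference -0.47, standard error 0.25, edgeR adjusted p = 0.84). The separation did not hold in the deposited TPM, which are scaled per length and also lack the TMM factors. The parts of length and of scaling cannot be told apart in TPM. In TPM Ifi27 was 138, 139 and 165 in C1 to C3 and 168, 87.3 and 172 in K1 to K3, and the log2 difference was -0.11. It was -0.07 with the trend over transcript length removed, -0.20 with library totals and -0.25 without K2. Xaf1, an antagonist of inhibitors of apoptosis, measured 4.31, 4.22 and 5.24 CPM in C1 to C3 and 6.99, 3.94 and 9.26 CPM in K1 to K3 (log2 difference 0.55, standard error 0.33). Bst2, which encodes tetherin, a protein that holds budding virions at the cell surface, and Ifi35 had differences of -0.20 and -0.38, with K2 the lowest library for both. Zbp1, a sensor of Z-form nucleic acid, ran from 7.61 to 16.2 CPM in controls and from 5.58 to 22.6 CPM in knockout-labelled libraries, and its difference was 0.00 with a standard error of 0.49. Trim30a, a negative regulator of NF-kB signalling, and Ifi44 had differences of 0.39 and 0.16.

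**Figure D2:**
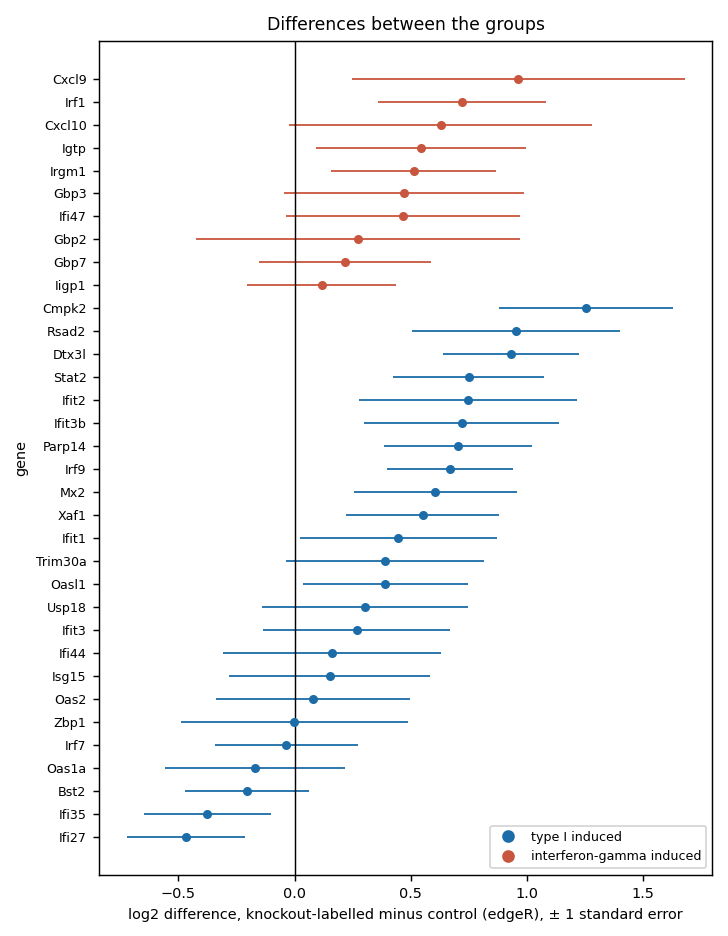
The edgeR log2 difference of each member (points) with 1 standard error on either side (bars), type I induced members in blue and interferon-gamma induced members in red; Mx1, whose standard error of 1.39 is the widest, is left out. The points run from -0.47 (Ifi27) to 1.25 (Cmpk2), and none of these differences passed the threshold.

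The 10 interferon-gamma induced members all had a log2 difference above 0, from 0.12 to 0.96 with a median of 0.49, and 0 of them had an unadjusted edgeR p under 0.05. K3 was the highest library for 9 of them and K2 the lowest of its group for 9. The immunity-related GTPases, which attack the vacuoles of intracellular pathogens, were per length the most abundant of them, with mean TPM of 11.01 for Ifi47 to 75.3 for Iigp1. Igtp measured 29.9, 36.2 and 50.2 CPM in C1 to C3 and 46.2, 25.3 and 98.5 CPM in K1 to K3 (log2 difference 0.55, standard error 0.45). Its annotated span overlaps Irgm2 on the same strand, which measured 9.74, 34.7 and 20.2 CPM in C1 to C3 and 15.2, 29.5 and 81.4 CPM in K1 to K3. Irgm1, a regulator of the other GTPases of the family, measured 28.1, 39.4 and 43.9 CPM in C1 to C3 and 39.5, 35.1 and 84.4 CPM in K1 to K3 (log2 difference 0.51, standard error 0.35). K3 was 98.5 CPM for Igtp and 84.4 CPM for Irgm1, while K1 and K2 lay within or under the control range for both. Ifi47 ran from 9.69 to 22.9 CPM in controls and from 9.29 to 39.5 CPM in knockout-labelled libraries, and Iigp1 from 184 to 323 CPM and from 188 to 372 CPM, with differences of 0.47 and 0.12.

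The guanylate-binding proteins, large GTPases that act with the former family, lie together on chromosome 3 from 142530342, where Gbp7 starts, to 142638008, where Gbp2 ends (plus strand, GRCm38). Gbp3 measured 5.27, 5.09 and 10.8 CPM in C1 to C3 and 9.79, 3.58 and 15.9 CPM in K1 to K3 (log2 difference 0.47, standard error 0.52). Gbp7 measured 10.7, 12.5 and 16.6 CPM in C1 to C3 and 15.5, 7.88 and 23.0 CPM in K1 to K3 (log2 difference 0.22, standard error 0.37). K3 and C3 were the highest libraries of their groups and K2 the lowest of all for both genes. Gbp2, named after its values were seen, measured 3.19, 4.65 and 17.3 CPM in C1 to C3 and 14.7, 3.27 and 12.5 CPM in K1 to K3, so that C3 exceeded all knockout-labelled libraries (log2 difference 0.27, standard error 0.70). Its difference was 1.38 without C3, and below 0 without C1 (-0.11), without C2 (-0.01) and without K1 (-0.09).

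The chemokines Cxcl9 and Cxcl10, which draw T cells through the receptor CXCR3, varied widely between animals. Cxcl9 measured 4.37, 6.95 and 22.6 CPM in C1 to C3 and 25.5, 5.93 and 34.8 CPM in K1 to K3, a ratio of 7.97 between the highest and the lowest library that was the largest among the members, Mx1 aside. C3, K1 and K3 lay high and C1, C2 and K2 low, so high and low libraries occurred in both groups (log2 difference 0.96, standard error 0.72, edgeR adjusted p = 0.85). Cxcl10 measured 3.46, 2.41 and 12.4 CPM in C1 to C3 and 11.8, 3.72 and 12.9 CPM in K1 to K3, with the same libraries high and low (log2 difference 0.63, standard error 0.65). Cxcl9 was 0.47 without K3 and 1.97 without C3.

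**Figure D3:**
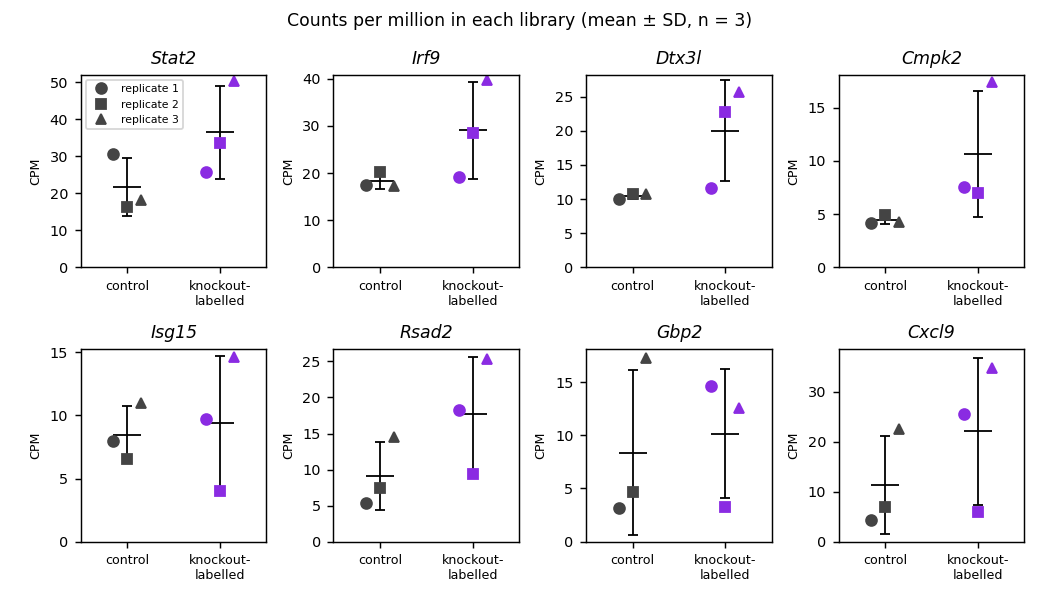
CPM of 8 members in each library (circle, square and triangle for replicates 1, 2 and 3), with the group mean and SD as a bar and whiskers (n = 3). For Dtx3l the controls sit between 9.96 and 10.7 CPM, whereas for Gbp2 and Cxcl9 each group holds both low and high libraries.

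Apart, the classes had similar medians, and both medians were smaller without K3. The median log2 difference was 0.39 for type I induced and 0.49 for interferon-gamma induced members, and no test of the difference between the classes was made. Without K3 the medians were 0.11 and -0.04, and 19 of 35 members were above 0. Without K2 they were 0.68 and 0.79, with 32 above 0, and without C3 0.63 and 0.72. By library, the median deviation of the type I class was -0.26, -0.39 and 0.32 in C1 to C3 and 0.20, -0.44 and 0.81 in K1 to K3, and that of the interferon-gamma class -0.55, -0.18 and 0.26 and 0.19, -0.77 and 1.01. The order of the libraries was thus the same in both classes except for C1 and C2. K1 alone against the controls, a fit chosen after seeing the data, gave medians of 0.23 and 0.25.

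**Figure D4:**
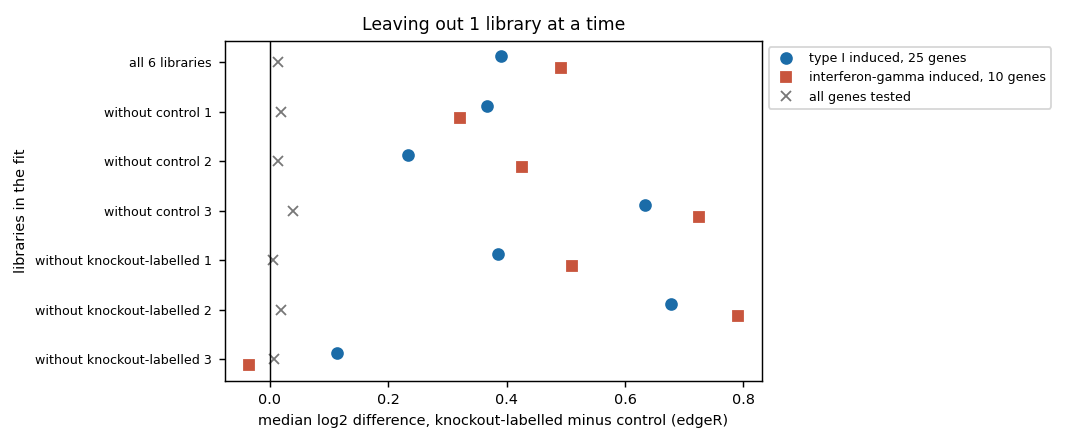
Median edgeR log2 difference of the type I induced members (blue), the interferon-gamma induced members (red) and all genes tested (grey) in the fit of all 6 libraries and with each library left out. Leaving out K3 brings both classes to 0.11 and -0.04, near the median of all genes, and leaving out K2 raises them to 0.68 and 0.79.

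Members with long transcripts had the larger differences, as had long genes in general. Among all genes tested the median log2 difference was -0.36 for transcripts of up to 1000 bases, -0.10 for 1001 to 2000, 0.05 for 2001 to 3000 and 0.15 above 3000. Among members the medians in the same classes were -0.03 (4 genes), 0.30 (11), 0.46 (12) and 0.75 (8). Of the short class, Ifi27 and Bst2 lay below 0 and Xaf1 and Isg15 above. The 8 members over 3000 bases, all above 0, are Cmpk2, Dtx3l, Parp14, Rsad2, Stat2, Ifit2, Trim30a and Gbp7. Trim30a (0.39) and Gbp7 (0.22) had the smallest differences of these. With the trend over transcript length removed from each library, the median difference was 0.35 for the type I class and 0.48 for the interferon-gamma class, and Bst2 turned to 0.10. K2 and K3 are the libraries in which all genes of the short class lay lowest, with median deviations of -0.25 and -0.40 against 0.11 to 0.23 elsewhere.

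**Figure D5:**
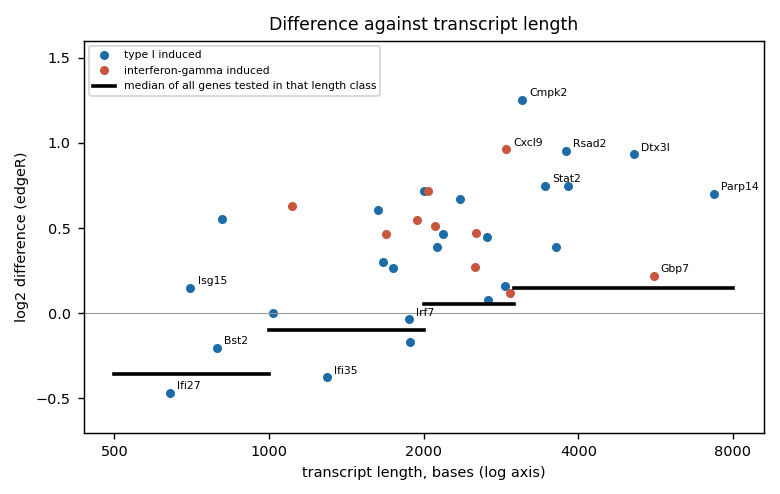
The edgeR log2 difference of each member against its transcript length in bases (log axis), with the median of all genes tested in 4 length classes as black bars. Black bars rise from -0.36 to 0.15 over the classes, and most members lie above the bar of their class.

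Upstream, transcripts of interferon itself were nearly absent. Of 21 interferon genes 19, among them Ifnb1 and every interferon-alpha gene listed, had 0 counts in every library after rounding to whole counts (Ifnz had an estimated count of 0.5 in K1), where a count of 0 allows up to 3 counts, or 0.13 to 0.16 CPM, for counting error only. Ifng had 1, 0 and 1 counts in C1 to C3 and 0, 0 and 7 in K1 to K3. Among the receptors, kinases and STATs, 5 of 10 tested genes lay above 0 and 5 below, with a median of 0.00 and 0 with an unadjusted edgeR p under 0.05. Those of smallest p were Tyk2, Stat3, Ifngr2 and Ifnar2, with differences of 0.53, 0.37, -0.47 and -0.41. Of 10 negative regulators 6 lay above 0 with a median of 0.05. On the higher side 1 of the 10 was free of overlap, beside 4.79% of all genes: Ptpn6, a phosphatase of haematopoietic cells, at a difference of 0.31.

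Further interferon-stimulated genes outside the 35 had a median nearer to that of all genes, a difference that was not tested. Of 71 tested, 44 lay above 0 and 27 below, with a median of 0.09, and 0 passed the edgeR threshold. An unadjusted edgeR p under 0.05 was reached by 3 on the higher side and 2 on the lower, beside 2.65% and 1.9% of all genes. Of the 71, 4 were free of overlap on the higher side and 2 on the lower, beside 4.79% and 4.55% of all genes. On the higher side stood Gbp4 (1.26) and the RNA-editing enzyme gene Adar (0.62), both free of overlap, and Helz2 (0.86). Trim21 (0.68) and Ifi203 (0.50) were also free of overlap without reaching that p. On the lower side, also free of overlap, stood Ube2l6, the enzyme that passes ISG15 to its targets (-0.69), and Psme1, a subunit of the proteasome activator (-0.68). Psme1 measured 206, 172 and 184 CPM in C1 to C3 and 161, 86.3 and 104 CPM in K1 to K3.

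Marker sums of immune cells shared the members' order of libraries only in part. K2 had the lowest sum for T and NK cell, plasmacytoid dendritic cell, B cell and neutrophil markers. Among the controls C3 had the highest macrophage, T and NK cell and neutrophil sums. K3, the highest library for most members, had the highest sum in no immune list. In bulk tissue fewer cells of a type and less RNA per cell cannot be told apart. The 15 Kupffer cell and macrophage markers summed to 297, 461 and 958 CPM in C1 to C3 and 428, 306 and 383 CPM in K1 to K3. The sum was highest in C3, while that of C1 lay under every knockout-labelled library. Of these markers 15 of 15 had a log2 difference below 0, beside 6048 of all 12497 genes. The 16 T and NK cell markers summed to 12.8, 13.1 and 37.97 CPM in C1 to C3 and 25.0, 5.93 and 13.9 CPM in K1 to K3, so that C3 and K1, and not K3, were highest. Of the 10 tested, 3 lay above 0 and 7 below. The 8 markers of plasmacytoid dendritic cells, the strongest producers of type I interferon, summed to 0.96 to 1.43 CPM in controls and 0.58 to 1.99 CPM in knockout-labelled libraries, with Siglech at or under 0.35 CPM throughout. The 10 neutrophil markers summed to 5.37 to 20.7 CPM in controls and 4.74 to 10.2 CPM in the others, and the 10 markers of sinusoidal endothelium to 182 to 283 and 183 to 273 CPM. Markers of conventional dendritic cells summed to 7.67 to 14.2 CPM, of B cells to 4.25 to 15.1 CPM, of stellate cells to 139 to 392 CPM and of cholangiocytes to 26.9 to 54.7 CPM over the 6 libraries. No marker of these lists was at 0 in every library, and their part in the members' levels was not tested.

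Per length, levels of the members ranged widely. In the deposited TPM, which are scaled per length and to the same total, the mean over the 6 libraries was 145 for both Ifi27 and Bst2, 75.3 for Iigp1, 22.8 for Igtp, 22.4 for Ifi35 and 19.6 for Irgm1, followed by Isg15 (16.2) and Irf7 (15.2). The lowest were Mx1 (0.30), Ifit2 (0.67) and Oas2 (1.197). Ifi27 and Bst2 did not differ beyond their spread, with 87.3 to 172 TPM for Ifi27 and 101 to 182 TPM for Bst2 over the libraries. In K1 the TPM of such short transcripts may carry a different length setting, as described above.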

How the data were processed

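Liver RNA of 6 mice was measured by paired-end sequencing of poly-A RNA, per the labels' protocols and the series' design text. Each deposited file gives, for 115221 transcripts of 1 library, an estimated count not scaled to depth and a TPM value scaled by the authors to the same total per library, per the file headers, whose layout is that of Salmon. Bowtie2 2.2.5, RSEM 1.2.8, DESeq and GRCm38 are named without roles, per the submitters' processing notes. No quantifier version or transcriptome for these files was given in the sources used here.

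Transcript identifiers were matched without version to GENCODE M21 (113664 matched, 1557 did not and were left out). Estimated counts were summed per gene, rounded, filtered with filterByExpr (12497 genes kept) and scaled with TMM. Groups were compared in R 4.3.3 by glmQLFTest (the quasi-likelihood F test, two-sided) from edgeR 4.0.16, and p-values were adjusted by Benjamini and Hochberg's method over every gene tested. Standard errors are the absolute log2 difference over the square root of F. DESeq2 1.42.0 and limma 3.58.1 gave alternatives. TPM were summed per gene, with a pseudocount of 0.5 where tested. The fits were tested on simulated data. There edgeR called 11 of 50 genes simulated with a log2 difference of 1, 43 of 50 with 2 and 34 of 50 with -2. Of 50 genes simulated with 4 it called 50, and of 12297 genes simulated without a difference it called 11. Each gene was drawn independently, without deviations shared by a whole library. The planted differences also ease the adjustment of p-values, so these rates need not hold in the real data.

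The members, their classes and the other lists were chosen with earlier results of these data known. Values in every library are given for the transcription factors, members with an unadjusted p under 0.05 or no overlap, and the 2 of smallest p in each role; up to 4 genes of smallest p are named from pathway lists. 1 gene of a pathway list is not reported here. Replicates of 1 group differed beyond counting error for 42.7% to 63.9% of genes, so no 2 libraries of the same group agreed within counting error. The alternatives were other scalings, filters and tools, length corrections, the deposited TPM, a replicate block and each library left out.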

Additional observations from a re-analysis of the deposited data

How the results depend on the processing

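No member passed an adjusted p of 0.05 in any alternative fit that was run. Over all genes, DESeq2 called 11, K1 alone against the controls called 9, and leaving out 1 library called 0 to 3. Leaving out 1 library gave medians of 0.09 to 0.69 for all members, 0.11 to 0.68 for the type I class and -0.04 to 0.79 for the interferon-gamma class, the lowest without K3 and the highest without K2. Library totals in place of TMM factors moved the median of all genes from 0.01 to 0.27, and those of the classes to 0.66 and 0.77; the deposited TPM gave 0.27 for all genes and 0.58 and 0.66 for the classes. Directions that turned were Irf7 (0.23), Oas1a (0.0715), Bst2 (0.0487) and Zbp1 (0.28) with library totals; Irf7 (0.20), Oas1a (0.11) and Bst2 (0.15) in TPM; Oas2 (-0.0021), Bst2 (0.10), Zbp1 (0.23) and Iigp1 (-0.0235) with the length trend removed. Oas2 was -0.11 with an effective length offset, Isg15 -0.0073 in limma voom and Zbp1 0.0040 with a minimum mean of 1 CPM. K1 alone gave Irf1 -0.23, Oas1a 0.28, Mx1 -3.67, Bst2 0.16, Ifi35 0.0907 and Iigp1 -0.0199. With 1 library left out, the ranges of the members that turned were -0.19 to 0.35 for Iigp1, -0.11 to 1.38 for Gbp2, -0.28 to 0.36 for Oas2, -0.99 to 4.77 for Mx1, -0.31 to 0.52 for Isg15, -0.63 to 0.37 for Zbp1, -0.23 to 0.70 for Ifi44, -0.43 to 0.21 for Irf7, -0.48 to 0.14 for Oas1a, -0.0354 to 0.71 for Oasl1, -0.24 to 0.72 for Usp18, -0.12 to 0.90 for Igtp, -0.18 to 0.84 for Ifi47, -0.0763 to 0.93 for Gbp3 and -0.18 to 0.53 for Gbp7. The values of Mx1 rest on 0 to 46 counts a library and measure no size. Except where a setting's own construction shows it (fewer libraries), the cause was not tested. With the replicate number as a block 0 genes were called and the class medians were 0.30 and 0.36. Same-numbered libraries deviated with correlations of 0.20, 0.27 and -0.14, and not every library correlated best with its own number. Deviations from means of 3 libraries sum to 0, so these correlations cannot decide whether same-numbered samples were paired, and no pairing is stated. The members' standard errors ran from 0.25 (Ifi27) to 1.39 (Mx1) with 3 animals per group, which limits the differences that can be shown.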

Other observations

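The assignment of reads to transcripts differed between libraries for some members, though these splits are estimates of the quantifier and single transcripts of a gene share most of their sequence. All 78 counts of Cmpk2 in C1 lay on a transcript with a retained intron (Cmpk2-204), and in C2, C3 and K1 to K3 the coding transcript had 90, 90, 174, 157 and 415 counts. Of Irf1, a coding transcript of 2136 bases (Irf1-202) had 0, 126 and 110 counts in C1 to C3 and 148, 394 and 617 in K1 to K3, whereas a coding transcript of 2069 bases had 232, 148 and 81.8 in C1 to C3 and 91.6, 86.0 and 40.5 in K1 to K3. The longer of these was highest in K2 and K3, and the shorter was lowest in K3. Retained-intron transcripts took 10.04%, 4.52% and 4.90% of all member counts in C1 to C3 and 6.75%, 4.26% and 4.63% in K1 to K3. Most of these counts lay on Ifi27, whose transcript Ifi27-209 of 527 bases held 46.0% of that gene's counts. Without Ifi27 the shares were 2.80%, 0.53% and 1.16% in C1 to C3 and 1.33%, 1.74% and 2.27% in K1 to K3.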
